A study of Sus scrofa with 96 samples.

Results

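Liver and testis of the same Landrace boar were compared by RNA-Seq in 33 pigs. The pigs were taken from a series of 96 libraries on boar taint (BT), the off-odour of meat from some entire male pigs. Only the 80 libraries made with a stranded mRNA kit were considered, and 34 pigs had such a library in both tissues. The testis library that correlated least with the other testes, that of pig 8308 of medium genetic merit of BT, was left out together with its liver. Its median Pearson r of log2 CPM (counts per 1000000 reads on genes) with the other stranded mRNA testes was 0.823, whereas the first library kept, of pig 1137, had 0.978. The remaining 66 libraries formed 33 pairs, of which 14 were from pigs of high, 12 of medium and 7 of low genetic merit of BT. Merit had been assigned from the breeding values of the sires for skatole in fat and for human nose score, and some pigs within a group were half-sibs. All pigs were untreated commercial males slaughtered at about 100 kg, and no group carried a transgene or a treatment.

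The hepatocytes of the liver secrete most plasma proteins, run the urea cycle and gluconeogenesis, form bile acids and oxidise and conjugate foreign and endogenous compounds. Skatole, formed by gut bacteria, is cleared there. In the testis, germ cells pass from spermatogonia through meiosis to spermatids, in which protamines replace histones and the flagellum is assembled, and they are nursed by Sertoli cells. Leydig cells lie between the tubules and make testosterone and, in the boar, androstenone, which is the second main compound of BT and is also metabolised in liver.

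The design placed some technical differences beside the tissues. The liver was sampled at once after slaughter, whereas the testes were collected after the carcass had spent about 1.5 h at 4 °C, so that tissue and delay cannot be told apart. All 33 livers were in batch 1 of the submitters' file labels, and 13 of the testes were in batch 1 and 20 in batch 2. These labels do not say which step of the work a batch stands for. A further label, run2, was on 1 liver and 5 testes. The testes of all pigs of high merit were in batch 2 and those of low merit in batch 1, and only the medium group was divided, 6 and 6. Between 6834642 and 11697486 reads (median 9529523) were counted on genes in liver and between 4881825 and 18045966 (median 10021041) in testis. The p-values measure the spread between these pigs and do not account for shared sires.

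Each tissue held the transcripts that define it. Transcripts of 23 plasma proteins took 11.2% to 27.9% (median 21.1%) of the reads of a liver library and 0.0142% to 0.0999% (median 0.0218%) of those of a testis library. The 22 spermatid genes took 2.84% to 5.68% (median 3.78%) in testis and 0.00107% to 0.00657% (median 0.00198%) in liver. A pair of libraries stood apart by traces of the other tissue. CPM in this paragraph were scaled as in the contrast of the tissues below. In the liver of pig 7131, of high merit, the summed CPM of 6 Leydig cell genes was 0.385% of the summed testis medians, and in the other livers it was at most 0.0578%. Its spermatid genes reached 0.399%, against 0.237% in the next liver. The CPM of PRM1, which encodes protamine 1, was 25.5 in this liver and 0 to 5.33 (median 0.524) in the others. In the testis of pig 1137, of low merit, plasma protein transcripts were at 0.266% of the summed liver medians, and the next testis was at 0.0695%. There, ALB was at 435 CPM, against 0.947 to 29.6 CPM (median 3.85) in the other testes. Counts of calls, the lists these traces belong to and the comparison by merit are given below with and without both pigs.

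**Figure D1:**
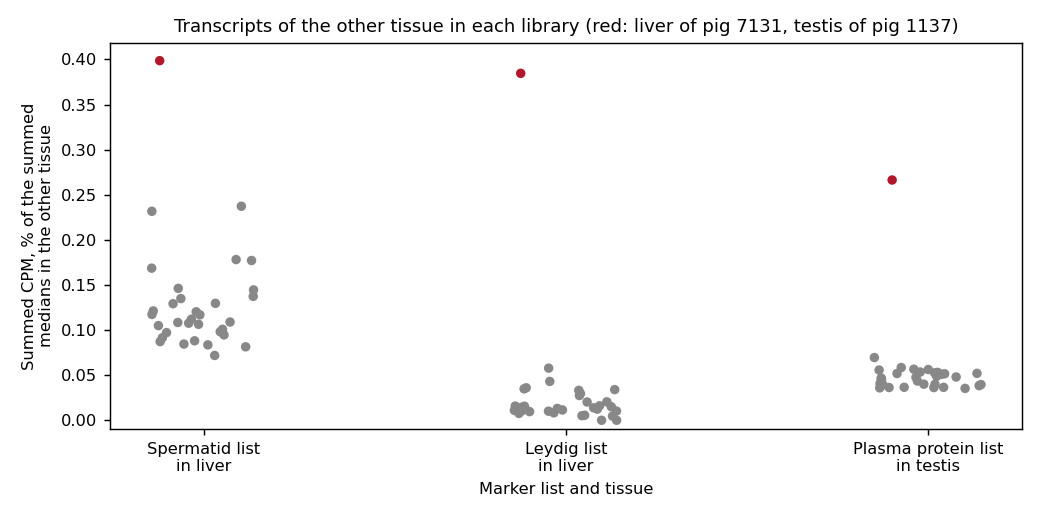
Each point is 1 library, and the y axis gives the summed scaled CPM of a marker list as a percentage of its summed medians in the tissue it marks. The liver of pig 7131, at 0.399% and 0.385%, and the testis of pig 1137, at 0.266%, are in red and lie above all other libraries.

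The libraries of both tissues were composed differently. In liver, the 10 most counted genes held 20.4% to 38.6% of the reads (median 32.2%), and in testis 5.24% to 8.18% (median 6.31%). The share was lower in testis in 33 of 33 pigs, by 25.0 ± 3.83 percentage points (mean ± SD, n = 33, two-sided permutation test exchanging the tissues within pigs, p = 1e-05, the smallest that 100000 permutations give). It was lower by 24.8 ± 3.02 points (SD, n = 13) in the pigs whose testis was in batch 1 and by 25.2 ± 4.34 points (SD, n = 20) in those in batch 2. ALB alone, which encodes albumin, took 4.61% to 20.1% (median 13.4%) of the liver reads, and PRM1 took 0.883% to 2.24% (median 1.35%) of the testis reads. The 13 protein-coding genes of the mitochondrial genome took 7.35% to 27.2% (median 13.5%) in liver and 1.47% to 5.15% (median 2.89%) in testis. Between 9680 and 12141 genes (median 10890) reached 1 CPM, here without scaling, in liver and between 13041 and 14312 (median 13720) in testis, and testis had more in 33 of 33 pigs, by 2798 ± 554 genes (SD, n = 33, permutation test, p = 1e-05). When every library was thinned to the 4881825 reads of the shallowest, 13044 to 15004 genes (median 14116) had a read in liver and 16438 to 17292 (median 16862) in testis.

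**Figure D2:**
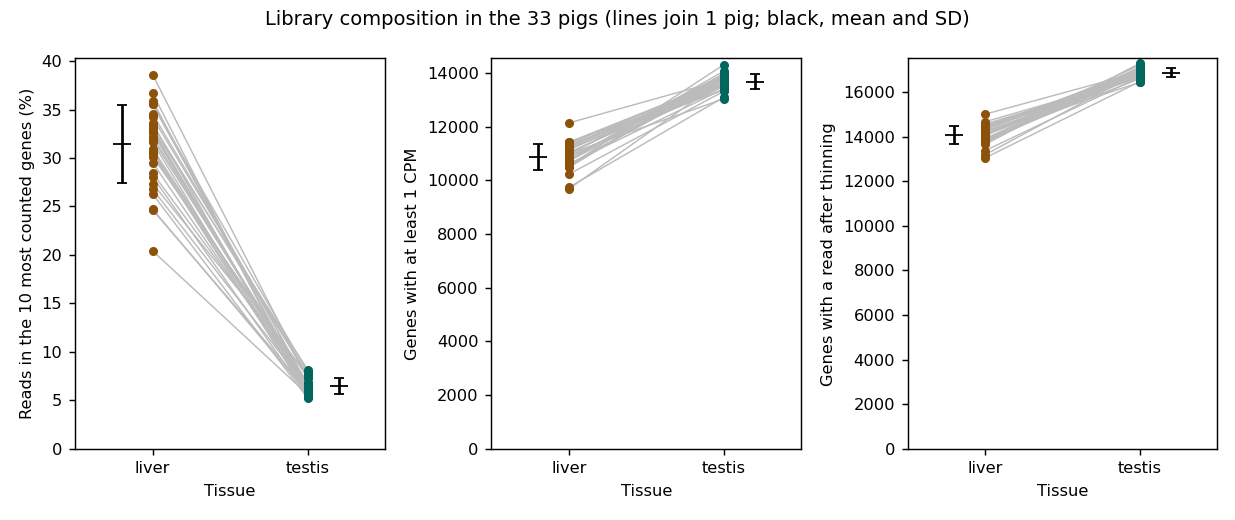
The y axes show the percentage of reads in the 10 most counted genes, the number of genes with at least 1 CPM and the number of genes with a read after thinning, each point being 1 library and each line 1 pig. Black marks are the mean and SD of 33 libraries, and all lines fall in the first panel and rise in the others.

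In the contrast of testis with liver, 15364 genes with a mean count above 5 were tested in edgeR with pig as a block. CPM and log2 fold changes are given after scaling by trimmed means of M values (TMM), and a positive log2 fold change is a higher level in testis. The contrast called 14373 genes, 93.5% of those tested, with a Benjamini-Hochberg adjusted p under 0.05. Of all tested genes, 52.2% (8024 genes) were higher in testis and 41.3% (6349 genes) higher in liver. A change beyond 2-fold was called in 10400 genes (67.7%), of which 6068 (39.5%) were higher in testis and 4332 (28.2%) in liver. The lowest and highest libraries of the tissues did not overlap in 7702 genes (50.1%). Among the called genes, 1809 were more than 64-fold higher in testis and 531 more than 64-fold higher in liver. The median log2 fold change of all tested genes was 0.37. TMM factors were 0.494 to 1.11 in liver and 1.18 to 1.79 in testis. Without them the median was 1.43, a shift of 1.06. The shift was smaller in TMEM239, ACTRT1 and SUN5, which had no count in any liver (TMEM239, from 13.46 to 13.85). Without scaling, 10360 genes were called higher in testis and 3956 in liver, so that the share of calls higher in testis was 72.4% instead of 55.8%. Beyond 2-fold, these were 8328 and 2540 genes, and the share was 76.6% instead of 58.3%. Fold changes below about 2-fold thus depended on the scaling, and the text gives the genes, or their number in a list, whose direction changed without it. Without the pair of pigs with traces of the other tissue, 14281 genes were called. The log2 fold changes of genes whose highest value in the other tissue came from these pigs were then larger in size, at -15.11 in ALB, -10.41 in CYP2E1, -12.67 in CYP2A19, 13.08 in CYP17A1, 13.99 in INSL3 and 13.73 in PRM1. In pigs whose testis was in batch 1 the number was 13558, and in those in batch 2 it was 14088.

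**Figure D3:**
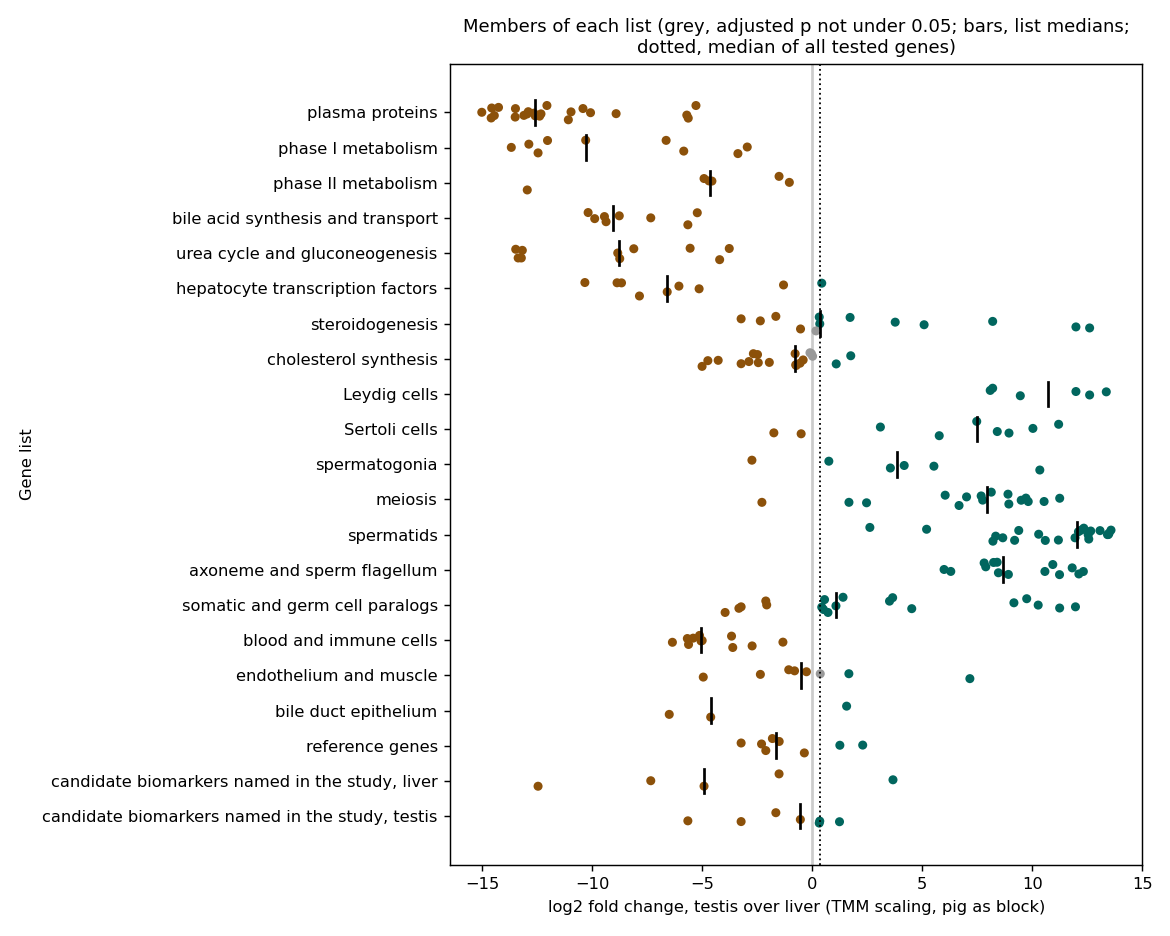
Each point is a gene of the list named on the y axis, placed by its log2 fold change of testis over liver. Liver lists such as plasma proteins lie left of 0, and germ cell lists such as spermatids lie right of 0, whereas steroidogenesis and cholesterol synthesis spread on both sides.

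All 23 measured plasma protein genes were higher in liver. Their median log2 fold change was -12.59, and the lowest and highest were -15.02 and -5.29. In bulk tissue, fewer cells of a type and less RNA per cell cannot be told apart, here and in every list that follows. ALB was at 47123 to 336036 CPM (median 200984) in liver and at 0.947 to 435 CPM (median 3.85) in testis, the highest value being that of pig 1137. TTR, which encodes the thyroid hormone carrier transthyretin, was at 3779.6 to 21862 CPM (median 11850) in liver and 0 to 26.8 CPM (median 0.266) in testis. The tissues did not overlap in either gene, and the log2 fold changes were -15.02 ± 0.54 (SE) and -14.60 ± 0.49 (SE), with edgeR adjusted p of 6.27e-27 and 5.33e-28. HPX, encoding the haem carrier hemopexin, and AHSG, encoding fetuin A, followed with -14.57 and -14.45. The smallest difference of the list was in APOA1, encoding the main protein of high-density lipoprotein, at 1243 to 6288 CPM (median 3181) in liver and 48.6 to 114 CPM (median 72.1) in testis, and testis was never above liver. The complement system, most of whose proteins are made in liver, had 17 of 17 tested genes higher in liver with a median of -7.24, from C8A at -13.44 to CFD at -4.25. Without pigs 7131 and 1137, 23 of 23 plasma protein genes and 17 of 17 complement genes were still higher in liver.

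The tested genes of oxidation (phase I) and conjugation (phase II) were all higher in liver, among them 2 genes that act on skatole. Only 9 of 21 listed phase I and 6 of 17 listed phase II genes were tested. SULT1A1 and the listed UGT, CYP2C and CYP3A genes could not be matched to an identifier by symbol. All 9 tested phase I genes were called, with a median log2 fold change of -10.30. CYP2E1, a cytochrome P450 that oxidises skatole, was at 143 to 9034 CPM (median 4320.2) in liver and 1.16 to 26.9 CPM (median 3.01) in testis, a log2 fold change of -10.30 ± 0.31 (SE). CYP2A19, another skatole-oxidising P450, varied widely between livers, from 1.58 to 821 CPM (median 133), and was at 0 to 0.839 CPM (median 0) in testis (log2 fold change -12.03 ± 0.31, SE). The highest testis value of both genes was in pig 1137, and the tissues did not overlap. The alcohol dehydrogenase ADH4 (-13.68) and CYP1A2 (-12.88) had still lower values. The smallest difference was in AOX1, an aldehyde oxidase, at 333 CPM in liver and 41.9 in testis by the medians (-2.95 ± 0.13, SE). Of 6 tested phase II genes, all were higher in liver with a median of -4.63. NNMT, a methyltransferase, was lowest at -12.96, and it was followed by the glutathione transferase GSTO1 (-4.92), the sulfotransferase SULT1A3 (-4.69) and GSTZ1 (-4.56). TPMT, a thiopurine methyltransferase, was at 20.3 to 93.8 CPM (median 50.8) in liver and 18.1 to 38.9 CPM (median 22.3) in testis, and its log2 fold change of -1.04 became 0.03 without scaling. Many P450 and sulfotransferase genes have close paralogs, among which counting could divide reads, so the values of single members are uncertain.

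Cytochromes P450 as a family did not all follow this direction. Of 17 tested genes with a CYP symbol, 10 were higher in liver, 4 were higher in testis and 3 were not called. The 4 were CYP17A1, CYP11A1 and CYP51A1, which act in steroid and cholesterol synthesis, and CYP4B1, with a median of 0 CPM in liver and 9.91 in testis (7.86 ± 0.22, SE). The genes not called, each of which was called higher in testis without scaling, were CYP27B1 (0.02), CYP39A1 (0.08) and CYP26B1 (0.11). CYP39A1 had medians of 12.5 CPM in liver and 13.8 in testis.

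Genes of bile acids, the urea cycle and gluconeogenesis were all higher in liver. The 8 tested bile acid genes had a median of -9.07. CYP7A1, the rate-limiting enzyme of bile acid synthesis, ranged most between livers, at 1.09 to 1047 CPM (median 19.3), and was at 0 to 0.153 CPM (median 0) in testis. The bile acid carrier SLC10A1 had -10.19, the bile salt export pump ABCB11 -9.45 and the bile acid receptor gene NR1H4 -9.37. The 10 genes of the urea cycle and gluconeogenesis had a median of -8.80. OTC, the mitochondrial ornithine carbamoyltransferase, was at 152 to 1439 CPM (median 656) in liver and 0 to 1.6 CPM (median 0) in testis (-13.48 ± 0.29, SE). PCK1, a key enzyme of gluconeogenesis, had -13.37, the tyrosine aminotransferase TAT -13.23 and the arginase ARG1 -13.18. Genes of fatty acid oxidation followed, since 8 of 8 acyl-CoA dehydrogenases were higher in liver with a median of -3.36, from ACADSB (-4.83) to ACADVL (-1.82).

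Of 9 hepatocyte transcription factors, 8 were higher in liver and PROX1 was not. FOXA2, a pioneer factor, was at 12 to 41.9 CPM (median 26.1) in liver and 0 to 0.0779 CPM (median 0) in testis (-10.34 ± 0.15, SE). HNF4A had -8.67 and NR1I2, the pregnane X receptor, -7.86. PROX1, a homeobox factor, was at 8.99 to 34.9 CPM (median 21.1) in liver and 14.8 to 41.8 CPM (median 27.8) in testis. The tissues overlapped, 24 of 33 pigs were higher in testis, and the log2 fold change of 0.43 ± 0.10 (SE) had an edgeR adjusted p of 0.000157, but it was -0.0008 with the unusual testis library kept. ONECUT1 was at 0.181 to 7.59 CPM (median 2.3) in liver and 0.13 to 1.82 CPM (median 0.796) in testis, and 7 of 33 pigs were higher in testis. Its log2 fold change of -1.30 ± 0.24 (SE) moved to -0.26 without scaling and was not called there (edgeR adjusted p = 0.328). PROX1 and ONECUT1 were singled out after their values were seen.

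Transcripts of the mitochondrial genome were lower in testis. All 13 genes were higher in liver, between ND5 (-2.65) and COX3 (-3.74), and the median of -3.42 was beyond the shift by scaling. The nuclear genes of the same complexes differed less. All 6 tested ATP synthase subunits (median -1.64) and 16 of 20 complex I subunits (median -0.995) were higher in liver, but without scaling the medians were -0.57 and 0.07 and 7 of the 20 complex I subunits changed direction. COX7A2 was higher in testis, with medians of 196 CPM in liver and 785 in testis (2.06 ± 0.09, SE), while the other 3 tested nuclear cytochrome c oxidase subunits were higher in liver, 1 of which changed direction without scaling. Genes of ribosomal proteins were higher in liver in 26 of 27 cases, with a median of -1.43 that was -0.37 without scaling, where 6 of them changed direction. The exception was RPL10L, a copy of RPL10 known from germ cells. Of 20 proteasome genes, 10 were higher in testis, 9 were higher in liver and 1 was not called, near the 52.2% and 41.3% of all tested genes. The median of 0.07 was 1.14 without scaling, where 6 genes changed direction. The highest value was that of PSMA8, a subunit of meiotic cells, with medians of 0 CPM in liver and 58.6 in testis (11.85 ± 0.12, SE).

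Markers of blood and immune cells were lower in testis. All 11 tested genes were higher in liver, with a median of -5.05. CD68, a macrophage marker, was at 15.4 to 67.1 CPM (median 32.8) in liver and 0 to 2.19 CPM (median 0.381) in testis (-6.36 ± 0.21, SE). PTPRC, the pan-leukocyte gene for CD45, was at 44.3 to 177 CPM (median 89.6) in liver and 1.03 to 6.49 CPM (median 1.99) in testis (-5.41 ± 0.13, SE). In neither did the tissues overlap. CSF1R, a receptor of macrophages, had -5.62. HBB, the beta globin of red blood cells, varied by about 2 orders of magnitude within each tissue, at 136 to 12917 CPM (median 2392) in liver and 2.96 to 361 CPM (median 35.4) in testis, and the tissues overlapped although 33 of 33 pigs had less in testis (-5.68 ± 0.31, SE). All 9 tested toll-like receptors (median -4.39) and all 4 tested major histocompatibility genes (median -3.72) were also higher in liver. These markers differed together with every liver gene above, and their part in other differences was not tested.

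Of 13 tested genes of steroid synthesis, 8 were higher in testis, 4 were higher in liver and SCARB1 was not called, shares not far from the 52.2% and 41.3% of all tested genes. Those at the head of androgen synthesis had the largest differences. CYP11A1, which cleaves the cholesterol side chain, was at 0 to 0.321 CPM (median 0) in liver and 62.7 to 609.6 CPM (median 189) in testis (11.99 ± 0.19, SE). CYP17A1, whose product forms androgens and, in the boar, the precursor of androstenone, was at 0 to 5.45 CPM (median 0.161) in liver, with the highest value in pig 7131, and 396 to 5648 CPM (median 1442) in testis (12.61 ± 0.34, SE). Neither gene overlapped between the tissues, but within testis CYP17A1 spanned more than 10-fold. HSD17B3, which makes testosterone, was at 52.1 to 102 CPM (median 70.5) in testis (8.20 ± 0.20, SE). SRD5A1, a 5-alpha-reductase, was at 0.647 to 4.32 CPM (median 1.78) in liver and 20.5 to 294 CPM (median 57.9) in testis, and 33 of 33 pigs were higher in testis (5.09 ± 0.20, SE). SRD5A2, a second 5-alpha-reductase, was at 0 to 0.387 CPM (median 0) in liver and 0.326 to 1.32 CPM (median 0.771) in testis (3.77 ± 0.31, SE). FDXR, the reductase that feeds electrons to CYP11A1, had 1.72 ± 0.14 (SE).

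The remaining steroid genes were shared or liver genes. CYB5A, encoding cytochrome b5, was at 944 to 3539 CPM (median 1737) in liver and 537 to 3903 CPM (median 1143) in testis. Its log2 fold change of -0.53 became 0.53 without scaling, so the direction was not settled. SCARB1, a lipoprotein receptor, was at 40.3 to 110.2 CPM (median 64) in liver and 29.1 to 268 CPM (median 71.8) in testis (0.17 ± 0.14, SE, edgeR adjusted p = 0.23), and without scaling it was called higher in testis at 1.24. SCARB1 was also called so under other settings, given at the end. TSPO, a mitochondrial cholesterol-binding protein, was at 4.64 to 21.5 CPM (median 10.8) in liver and 0.597 to 7.4 CPM (median 1.81) in testis, lower in testis in 33 of 33 pigs (-2.36 ± 0.17, SE). SULT2B1 had a mean count of 1.39 and was not tested.

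Leydig cell genes had 6 of 6 members higher in testis, with a median of 10.73, or 10.61 with LHCGR at its lower bound. INSL3, a hormone of Leydig cells, was at 0 to 6.1 CPM (median 0) in liver, where the highest value was that of pig 7131, and at 519 to 5056 CPM (median 1500.1) in testis (13.37 ± 0.35, SE). The luteinising hormone receptor gene LHCGR had no count in any liver and 2.5 to 19.7 CPM (median 6.1) in testis. Set against a floor of 3 counts over all livers, it was at least 597-fold higher in testis. NR5A1, the steroidogenic factor of these cells, was at 1.69 to 9.81 CPM (median 4.47) in testis (8.09 ± 0.19, SE). The share of testis reads on the 6 genes ranged from 0.165% to 1.63% (median 0.475%), about 10-fold between pigs.

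**Figure D4:**
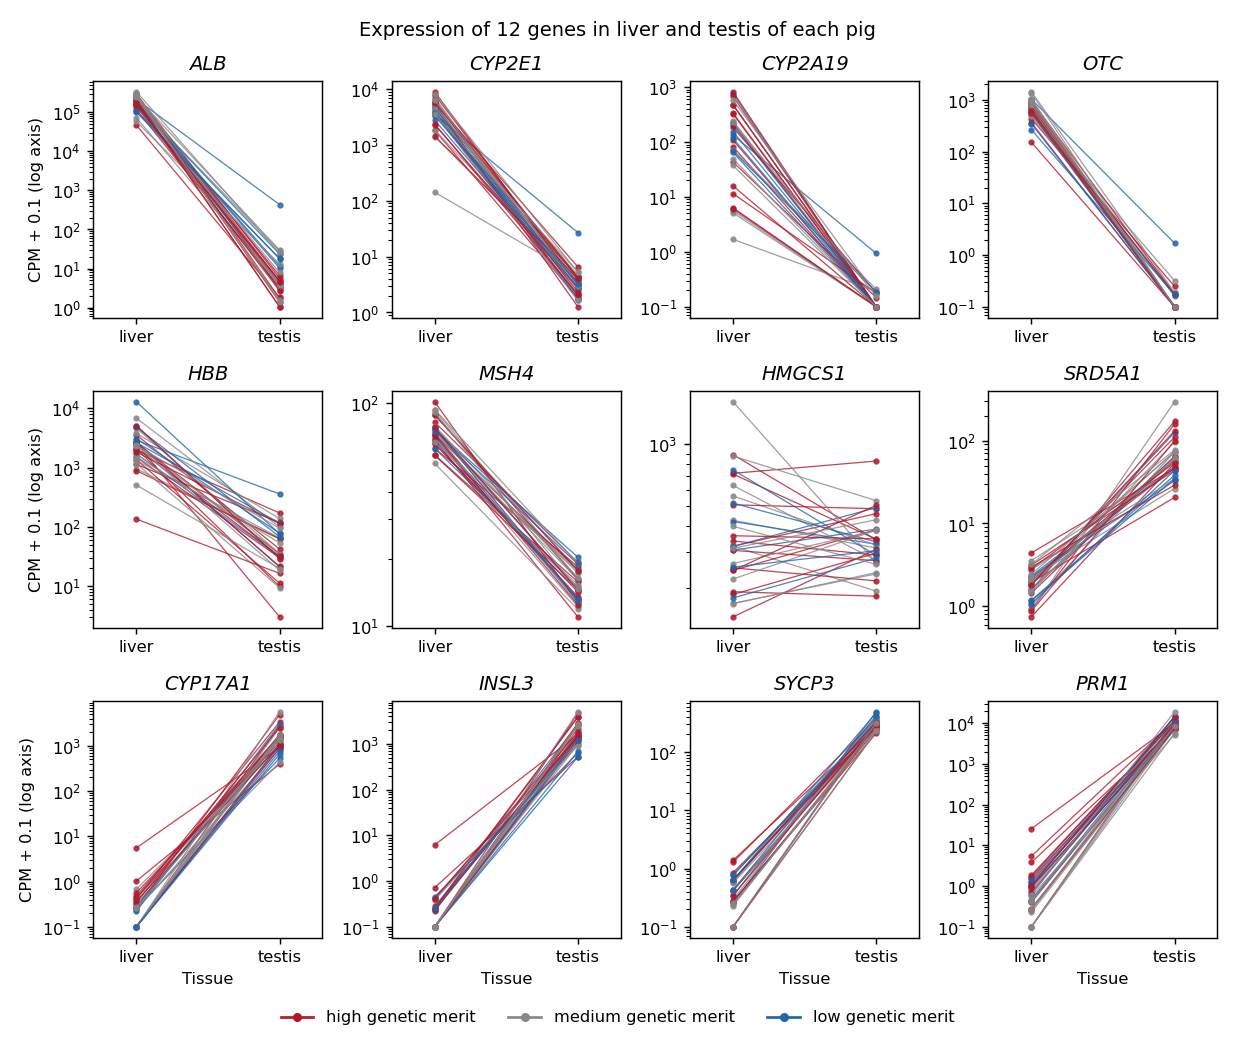
Each line joins liver and testis of 1 pig, coloured by genetic merit of BT, and the y axis is CPM plus 0.1 on a log scale. ALB, CYP2E1, CYP2A19, OTC, HBB and MSH4 fall in all pigs, HMGCS1 goes either way, and SRD5A1, CYP17A1, INSL3, SYCP3 and PRM1 rise in all pigs.

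Cholesterol synthesis, which supplies both bile acids and steroids, did not follow 1 tissue. Of 19 tested genes, 14 were higher in liver, 2 were higher in testis and 3 were not called, and the median of -0.78 was 0.29 without scaling, where 7 genes changed direction. The largest differences were in late steps and favoured liver. DHCR7, which makes cholesterol from 7-dehydrocholesterol, was at 18.6 to 198 CPM (median 68.7) in liver and 1.06 to 3.99 CPM (median 1.98) in testis (-5.01 ± 0.13, SE), without overlap. The sterol reductase TM7SF2 had -4.75, the desaturase SC5D -4.28 and HSD17B7, a ketosteroid reductase, -3.23. In the opposite direction, NSDHL, a sterol demethylation enzyme, was at 53.4 to 191 CPM (median 86.1) in liver and 189 to 483 CPM (median 294) in testis (1.75 ± 0.10, SE), and CYP51A1, the lanosterol demethylase, had 1.09 ± 0.14 (SE). HMGCS1, an early enzyme of the pathway, was at 145 to 1604 CPM (median 319.5) in liver and 183 to 828 CPM (median 323) in testis, and 15 of 33 pigs were higher in testis (-0.10 ± 0.14, SE, edgeR adjusted p = 0.47). FDFT1, squalene synthase, had -0.04 ± 0.13 (SE, edgeR adjusted p = 0.78). Neither was called, but both were called higher in testis without scaling, at 0.96 and 1.03.

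Sertoli cell genes were higher in testis in 7 of 9 cases, with a median of 7.48. INHA, the alpha subunit of inhibin, was at 0 to 0.162 CPM (median 0) in liver and 24.4 to 55.9 CPM (median 39.7) in testis (11.20 ± 0.13, SE). CLDN11, a tight junction protein of the blood-testis barrier, had 10.03 and the follicle-stimulating hormone receptor FSHR 8.41. DMRT1, a sex-determination factor, had no count in any liver and was at 2.02 to 11.3 CPM (median 5.47) in testis, at least 429-fold higher against the floor. GATA4 was at 2.94 to 15.9 CPM (median 8.07) in liver and 2.81 to 9.06 CPM (median 6.18) in testis, and its log2 fold change of -0.50 became 0.56 without scaling. It was named for going against the list.

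The median log2 fold change was 3.87 in 6 spermatogonial, 7.95 in 16 meiotic and 12.03 in 22 spermatid genes, beside 0.37 in all tested genes. Of the spermatogonial genes, 5 were higher in testis. DDX4, an RNA helicase of germ cells, was at 0 to 0.481 CPM (median 0) in liver and 65.7 to 165 CPM (median 112) in testis (10.35 ± 0.18, SE). STRA8, which acts at entry into meiosis, had 5.53, NANOS3 4.18 and UCHL1 3.55. KIT, the stem cell factor receptor, overlapped between the tissues, at 2.53 to 19 CPM (median 7.15) in liver and 5.14 to 22.7 CPM (median 11) in testis (0.75 ± 0.15, SE). ZBTB16, a factor of undifferentiated spermatogonia, was at 0.652 to 6.39 CPM (median 3.1) in liver and 0.0771 to 1.42 CPM (median 0.424) in testis, lower in testis in 33 of 33 pigs (-2.74 ± 0.18, SE). GFRA1 and NANOS2 were not tested, with mean counts of 1.11 and 0.0606.

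Of 16 meiotic genes, 15 were higher in testis and none of the 16 overlapped between the tissues. MAEL, a piRNA pathway gene, was at 0 to 0.802 CPM (median 0) in liver and 62.8 to 169 CPM (median 111) in testis (11.25 ± 0.18, SE). The recombinase DMC1 had 10.54, and the synaptonemal complex genes SYCE3 and SYCP3 had 9.82 and 9.72. SYCP3 was at 0 to 1.28 CPM (median 0.318) in liver and 209 to 487 CPM (median 289.7) in testis. MSH4, annotated as a meiotic mismatch repair gene, went the other way and was at 53.4 to 101 CPM (median 73.4) in liver and 10.9 to 20.2 CPM (median 14.8) in testis. Its values were narrow in both tissues, and it was lower in testis in 33 of 33 pigs (-2.29 ± 0.06, SE, -1.22 without scaling). It was singled out for going against its list, and whether reads of a neighbouring or overlapping gene were counted there was not tested. All 7 tested tudor domain genes, most of which act in the piRNA pathway, were higher in testis with a median of 8.06, from TDRD3 (1.87) to TDRD5 (10.65). Of 20 cyclins, 11 were higher in testis, 7 were higher in liver and 2 were not called, near the shares of all tested genes, and 2 changed direction without scaling. CCNA1, the cyclin of meiotic germ cells, had 11.33, CCNB2 5.54 and CCNB1 4.31.

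All 22 spermatid genes were higher in testis in every pig, from CATSPER2 at 2.62 to PRM1 at 13.58, and without pigs 7131 and 1137 the median was 12.70. PRM1 was at 0 to 25.5 CPM (median 0.53) in liver, the highest being pig 7131, and 5222 to 19050.2 CPM (median 8969.6) in testis (13.58 ± 0.38, SE, edgeR adjusted p = 7.81e-31). TNP1, the transition protein that precedes protamines on the DNA, was at 0 to 11.9 CPM (median 0.163) in liver and 1819 to 7723 CPM (median 3561) in testis (13.50 ± 0.35, SE). CRISP2, a protein of the acrosome and flagellum, had 13.46 and the acrosomal ACRV1 13.42. ACRV1 was at 0 to 0.321 CPM (median 0) in liver and 197 to 696 CPM (median 418) in testis, so that its fold change rests on 6 counts over all livers. The 4 testis-specific serine kinases were higher in testis, between TSSK4 (5.64) and TSSK2 (12.22).

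Genes of the flagellum had the same direction. All 14 axoneme and flagellum genes were higher in testis, without overlap, with a median of 8.69. SPAG6, a protein of the central apparatus, was at 0 to 1.28 CPM (median 0) in liver and 238 to 513 CPM (median 371) in testis (12.33 ± 0.22, SE). TEKT2, encoding a tektin, had 12.12, SPAG17 11.82 and the dynein chain DNAI2 11.24. Of the families picked by symbol, 6 of 6 axonemal dynein heavy chains, 8 of 10 tubulin tyrosine ligase-like genes and 28 of 35 kinesins were higher in testis, with medians of 4.81, 5.21 and 3.17, and 1 kinesin changed direction without scaling. The kinesins were spread from KIF13A (-2.45), a transport motor that was higher in liver, to KIF2B (11.24). KIF15, a spindle motor, had medians of 2.3 CPM in liver and 675 in testis (8.21 ± 0.15, SE). TTLL12 and TTLL3 were the tubulin tyrosine ligase-like genes higher in liver, at -1.96 and -1.94.

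Several enzymes and carriers have a somatic gene and a paralog described from germ cells. GAPDH, the somatic glycolytic enzyme, was at 218 to 864 CPM (median 387) in liver and 21.4 to 78 CPM (median 41.7) in testis, while its sperm paralog GAPDHS was at 0 to 1.44 CPM (median 0) in liver and 202 to 693 CPM (median 368) in testis. The log2 fold changes were -3.23 ± 0.12 and 11.97 ± 0.23 (SE), of opposite sign in 33 of 33 pigs. SLC25A4, the somatic ADP/ATP carrier, had -3.96 ± 0.08 (SE) and its germ cell paralog SLC25A31 10.27 ± 0.16 (SE). In lactate dehydrogenase both genes were higher in testis. LDHC, the germ cell form, was at 0 to 1.44 CPM (median 0.245) in liver and 131 to 319.8 CPM (median 227) in testis (9.17 ± 0.21, SE), and LDHA was at 152 to 476 CPM (median 225) in liver and 206 to 435 CPM (median 300.1) in testis (0.43 ± 0.08, SE, 0.08 and not called with the unusual testis library kept). The hexokinase HK1 had 4.52 ± 0.10 (SE), whereas PGK1, a later step of glycolysis, was lower in testis (-2.11 ± 0.07, SE). RPL10L was at 0 to 0.642 CPM (median 0.148) in liver and 87.4 to 219.7 CPM (median 132) in testis (9.75 ± 0.15, SE), and TCP11, a sperm gene of the list, had 11.25. HSPA1L, a heat shock protein described from testis, was higher in liver, at 235 CPM against 22.2 in testis by the medians (-3.33 ± 0.13, SE). Of the 19 tested genes of this list, 14 were higher in testis and 5 in liver, with a median of 1.08. Reads of retained copies and close relatives, such as the HSPA1 genes, could have been divided in counting.

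**Figure D5:**
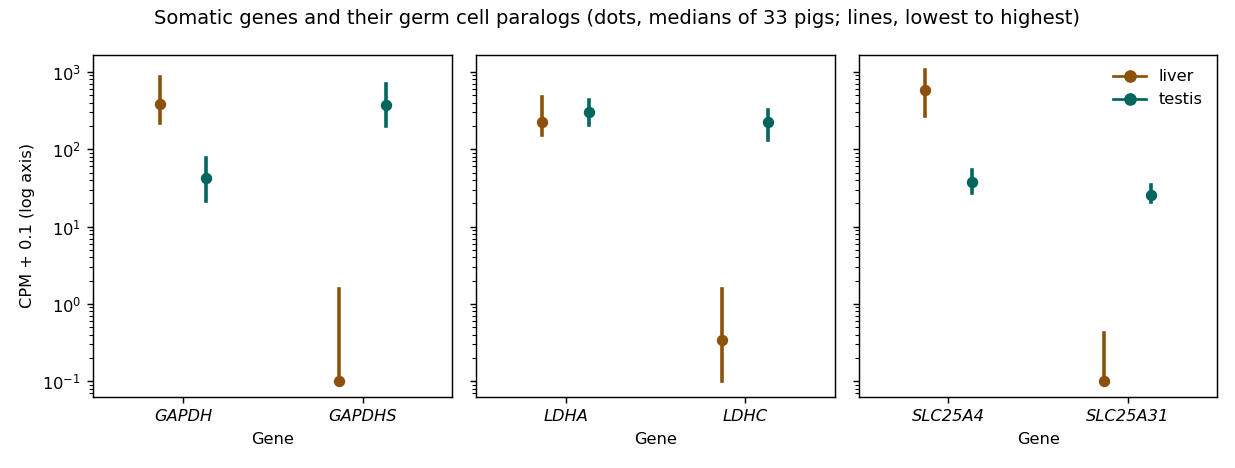
The y axis is CPM plus 0.1 on a log scale, dots are medians of 33 pigs and vertical lines run from the lowest to the highest pig. GAPDH and SLC25A4 lie higher in liver and GAPDHS and SLC25A31 in testis, while LDHA overlaps between the tissues and LDHC does not.

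Genes often taken as references differed about as often as other genes. All 8 tested were called, 6 higher in liver and 2 in testis, with a median of -1.66, beside 93.5% of all tested genes, and 5 of the 8 did not overlap, beside 50.1%. ACTB was at 270.3 to 1323 CPM (median 717) in liver and 156 to 245 CPM (median 189.9) in testis (-1.81 ± 0.10, SE), and YWHAZ at 35.6 to 116 CPM (median 59) and 217 to 380.2 CPM (median 283) (2.29 ± 0.08, SE). GUSB had -2.30 ± 0.20 (SE) and SDHA -1.50 ± 0.07 (SE). TOP2B had the smallest difference, at 50 to 91.8 CPM (median 76.6) in liver and 40.1 to 74.9 CPM (median 60) in testis, and its -0.36 became 0.71 without scaling.

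Cell types that both organs hold gave mixed values. Of 8 endothelium and muscle genes, 5 were higher in liver, 2 in testis and CNN1 was not called (0.36 ± 0.20, SE, edgeR adjusted p = 0.085). Beyond 2-fold, 2 were higher in liver and 2 in testis. The median of -0.53 was 0.54 without scaling, where 3 genes changed direction and CNN1 was called higher in testis. CNN1 was also called so under other settings, given at the end. KDR, a receptor of endothelial cells, was at 63.9 to 195 CPM (median 132) in liver and 1.93 to 9.81 CPM (median 4.15) in testis (-4.95 ± 0.11, SE), and PECAM1, another endothelial marker, had -2.36 ± 0.12 (SE). ACTA1 and MYH11, of muscle, were higher in testis (7.17 and 1.67). ACTA2, TAGLN and DES, also of muscle, were higher in liver, but they were the 3 genes that changed direction without scaling. Among bile duct markers, CFTR (-6.50) and SPP1 (-4.62) were higher in liver and EPCAM in testis (1.56). Of the epididymis markers, CRISP1, LCN8 and RNASE10 had mean counts of 0.409, 1.33 and 0.0909 over all 66 libraries and were not tested. ADAM28, the remaining one, was at 3.24 to 11.1 CPM (median 5.85) in testis, and its log2 fold change of -0.85 became 0.22 without scaling.

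The study had proposed candidate biomarkers of BT in each tissue from these samples, so their choice is not independent of the data, although it was not made on the tissue contrast. Of the 5 liver candidates tested, 4 were higher in liver. ACOX2, an oxidase of bile acid synthesis, had -7.34, GSTO1 -4.92 and the glutathione reductase GSR -1.51. COQ3, a methyltransferase of ubiquinone synthesis, was higher in testis in 33 of 33 pigs, at 0.821 to 4.24 CPM (median 1.72) in liver and 18.5 to 39.2 CPM (median 23.8) in testis (3.67 ± 0.10, SE). Of the 7 testis candidates tested, 3 were higher in testis and 4 were higher in liver. MAP3K2, a kinase, had 1.24 ± 0.12 (SE), while STARD10, a lipid transfer protein, and CYB5R3, a cytochrome b5 reductase, differed little, at 0.32 ± 0.12 and 0.34 ± 0.11 (SE). Both overlapped between the tissues and were negative, at -0.13 and -0.02, with the unusual testis library kept. CYP27A1, a sterol hydroxylase, was at 4.38 to 45.4 CPM (median 9.15) in liver and 0 to 0.521 CPM (median 0.229) in testis (-5.65 ± 0.19, SE). HSD17B7 (-3.23) and HSD17B8 (-1.65), of steroid metabolism, were also lower in testis, and MAP2K2 had -0.54, or 0.53 without scaling.

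Over all genes, 7009 of the called genes had a mean of at least 10 CPM in the higher tissue and the same direction in every pig, and 4926 of them had a symbol. The 10 with the highest log2 fold change were PRM1, TNP1, CRISP2, TMEM239, ACRV1, INSL3, PRM2, ACTRT1, SUN5 and NT5C1B. TMEM239, encoding a transmembrane protein, was at 65.9 to 267 CPM (median 120.1) in testis and had no count in any liver, so it was at least 9421-fold higher against the floor. For ACTRT1, an actin-related protein of the sperm head, and SUN5, which anchors the sperm head to the tail, the bounds were at least 6593-fold and 6204-fold. PRM2, encoding protamine 2, was at 248 to 1729 CPM (median 722) in testis (13.08 ± 0.22, SE), and NT5C1B, a nucleotidase, at 570.5 to 1415 CPM (median 884) (12.87 ± 0.24, SE). Among the 10 with the lowest log2 fold change and a symbol were ALB, TTR, HPX, AHSG, HRG, APOC3, GC, LECT2 and ADH4. HRG, histidine-rich glycoprotein, was at 594 to 9793 CPM (median 4415) in liver and 0 to 11.5 CPM (median 0.0815) in testis (-14.31 ± 0.45, SE). GC, the vitamin D binding protein, had -13.96 ± 0.37 and LECT2, a hepatokine, -13.92 ± 0.33 (SE). APOC3, an apolipoprotein of triglyceride-rich particles, had -14.26 ± 0.51 (SE).

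Genes restricted to 1 tissue were more frequent in testis. At least 1 CPM was reached in every testis by 11243 genes, in every liver by 9132 and in all 66 libraries by 7691 of the tested genes. In 181 genes each testis had at least 1 CPM and each liver under 0.1 CPM, and 29 genes had the reverse pattern. Since 1 read was worth more than 0.1 CPM in liver, all 181 had no count in any liver, whereas up to 9 counts over all testes occurred in the 29. With no count in the other tissue as the criterion, the numbers were 181 and 5. Without pigs 7131 and 1137 they were 254 and 41. Symbols were available for 85 of the testis-restricted genes, TMEM239, ACTRT1 and SUN5 among them, and for 9 of the liver-restricted genes, among them TM4SF4, a tetraspanin-like gene, at 52.7 to 460 CPM (median 152), the matrix metalloproteinase MMP7, at 4.82 to 349 CPM (median 40.5), and the zinc finger gene SALL1, at 15.4 to 69.4 CPM (median 27.9).

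Log2 CPM was more spread between livers than between testes. Over the 7691 genes present in every library, the median SD of log2 CPM between pigs was 0.402 in liver and 0.275 in testis, and 83.8% of the genes (6446) had the larger SD in liver. The median ratio of the SDs was 1.44, 1.57 without scaling, 1.48 without pigs 7131 and 1137 and 1.4 in the 13 pigs whose testis shared batch 1 with the liver. Among list members, ACTB had an SD of 0.526 in liver and 0.161 in testis, and CYP51A1 0.695 and 0.279. The opposite held for CYB5A, with 0.408 and 0.688, and for FDXR, with 0.438 and 0.687. Tissue cannot be told apart from sampling delay in this comparison. The SDs also include counting error. Median TMM factors were 0.681 in liver and 1.47 in testis, and median reads on genes were 9529523 and 10021041. A read was thus typically worth more CPM in liver than in testis. The part of counting error in the larger SDs of liver was not tested.

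The deviations of the 7691 genes from their tissue means correlated within pigs with a median Pearson r of 0.0309 (n = 33 pairs, -0.215 to 0.309), and between different pigs with a median of -0.00392. In 10 of 33 pairs r was over 0.1, and 1 of 33 livers correlated best with its own testis. Over the 33 pigs, single genes had a median r between the tissues of 0.0471, and 8 genes had an r over 0.7. The highest with a symbol was PEX19, a peroxisome assembly gene, at 0.753. Points of a pair share the animal, not the library or, for 20 pairs, the batch.

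Whether the tissue difference depended on genetic merit of BT was tested as the difference between high and low BT of the paired contrast. Among 15364 genes, 1 (0.00651%) had an edgeR adjusted p under 0.05, and 917 had an unadjusted p under 0.05. The gene, ENSSSCG00000002886, had no symbol in the table used. It was at 12.6 to 1018 CPM (median 411) in livers and 0 to 0.0741 CPM (median 0) in testes of high BT, and at 37.0 to 423 CPM (median 122) in livers and 0 to 1.60 CPM (median 0.0754) in testes of low BT. The log2 fold change differed by -4.59 ± 0.84 (SE, edgeR adjusted p = 0.0479). The paired differences overlapped, from -15.05 to -8.19 in high and -12.88 to -7.19 in low BT. Without pigs 7131 and 1137, 0 genes were called by edgeR, with 670 at an unadjusted p under 0.05, and the difference in this gene was -2.84 (edgeR adjusted p = 1). The call was also lost, with differences of similar or larger size, without scaling (-4.58, edgeR adjusted p = 0.0537), with the unusual testis library kept (-4.38, 0.158), without the pig block (-4.95, 0.163) and with testis batch as a further term (-6.20, 0.649). In limma with voom the difference was -2.80 (adjusted p = 0.236). High and low BT coincided with testis batches 2 and 1 and cannot be told apart from them in this test. Within the medium group, the paired contrast differed between testis batches in 0 of 15220 genes (0.0%) by edgeR, with 499 at an unadjusted p under 0.05, and limma with voom also called 0.

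None of the 217 list members was called for merit, but those of some lists leaned in 1 direction. The members of a list were measured in the same 14 high and 7 low pigs, so they are not independent and their number is not a number of replicates. For plasma proteins, 19 of 23 genes had an unadjusted p under 0.05, beside 5.97% of all tested genes. The median difference of high minus low BT was -1.59, that is, a larger ratio of liver to testis in high BT. Without pigs 7131 and 1137, these were 11 of 23 and -1.11, beside 4.37% of all genes. ALB had a paired log2 difference of -16.06 ± 1.15 (SD, n = 14) in high, -14.94 ± 1.85 (SD, n = 12) in medium and -12.86 ± 2.00 (SD, n = 7) in low BT. The difference of high and low was -3.02 ± 0.78 (SE, edgeR adjusted p = 0.384), and -2.56 ± 0.74 without the pigs (SE, edgeR adjusted p = 1). In testis, ALB was at 0.947 to 6.53 CPM in high and 3.85 to 435 CPM in low BT. In liver it was at 47123 to 299229 CPM in high and 100737 to 215527 CPM in low BT. Merit coincided with testis batch in these values too, and which tissue the lean of the list came from was not tested. For spermatid genes, 9 of 22 had an unadjusted p under 0.05 with a median of -1.49, and without the pigs 6 of 22 with -1.04. Of the phase I genes, 4 of 9 had an unadjusted p under 0.05 with a median of -0.70, and without the pigs 0 of 9 with -0.055. For the urea cycle and gluconeogenesis these were 4 of 10 with -0.37 and 1 of 10 with -0.25. The part of smaller traces in the other pigs was not tested. None of the 13 genes of steroid synthesis had an unadjusted p under 0.05 (median 0.06, 0.12 without the pigs). CYP2E1 differed by -0.17 ± 0.62 (SE, edgeR adjusted p = 1), and by 0.24 ± 0.59 (SE) without the pigs. CYP2A19 differed by -2.83 ± 1.02 (SE, edgeR adjusted p = 0.696), which became 0.28 ± 1.49 (SE) without them. CYP17A1 differed by -1.58 ± 1.10 (SE, edgeR adjusted p = 0.891), or -1.10 ± 0.97 (SE), and SRD5A1 by 0.06 ± 0.58 (SE, edgeR adjusted p = 1), or 0.12 ± 0.61 (SE). None of these passed the test in either set of pigs.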

How the data were processed

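The deposited files hold raw counts of reads for 25322 gene identifiers, which the authors obtained from HTSeq 0.6.0 at default settings. Before counting, adapters and low-quality ends had been removed by CutAdapt 1.8.1 and Trimmomatic 0.33 and the pig genome Sus scrofa 10.2 with Ensembl annotation 79 had served as the reference in STAR. The default counting takes uniquely mapped reads, so close paralogs lose reads. The strand setting was not stated in the sources used here. Rows of unassigned reads were left out of library sizes and tests. Per library, reads on genes made up 45.2% to 74.7% of the reads on genes, on no feature or ambiguous. Reads of the other unassigned rows were not in this total. Tools and versions of the authors are those of the submitters' processing notes. Of the identifiers, 11804 had a symbol in the gene name table, and 9936 of the 15364 tested genes.

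Pairs of liver and testis from the same pig number in the labels were contrasted with edgeR 4.0.16 in R 4.3.3 (TMM factors, quasi-likelihood test, pig as block, mean count above 5). A test against a 2-fold change used glmTreat. Adjusted p-values are those of Benjamini and Hochberg over all tested genes. The SE of a log2 fold change was its size over the square root of the F statistic. Merit and, in medium BT, testis batch entered as interactions with tissue. Alternatives were no scaling factors, RLE factors, DESeq2 1.42.0, no minimum on counts, 10 counts or more in each library of either tissue, limma 3.58.1 with voom and quality weights, the unusual testis library kept, no pig block, testis batch as a term, each testis batch alone and, added after the data had been seen, leaving out pigs 7131 and 1137 and, for the spread between pigs, the pigs of testis batch 1 alone. The fits were tested on simulated data with changed genes. The pairing comes from the shared animal. Deviations correlated over 0.1 in 10 of 33 pairs (median r 0.0309).

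The pairs, the 22 gene lists and the symbol families were chosen with earlier results of these data known. The lists hold 323 symbols, of which 223 had an identifier and 217 were tested. In each list, the 4 genes of largest absolute log2 fold change and those that did not pass the test were named, together with the 10 highest and 10 lowest called genes with at least 10 CPM and 1 direction in every pig. Other members were named after their values had been seen. Some genes that meet the rule are not reported here. With no sequence tables or genome of the build of the files used here, no sequence or coordinate is given. Library depth sets the counting error, and a count of 0 over a tissue allows up to 3 counts.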

Additional observations from a re-analysis of the deposited data

Results flagged for a closer look

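The testis of pig 1137, of low BT, stood above the other 6 low testes in 2 measures. Plasma protein transcripts took 0.0999% of its reads, whereas the others had 0.0184% to 0.0254%, and relative to the summed liver medians they were at 0.266%, against 0.0398% to 0.0584%. The limit for flagging such a gap is passed by chance in about 1 in 20 groups. In the low BT libraries 18 measures were examined. Both flagged measures rest on the same plasma protein transcripts of 1 library. The tissue difference of ENSSSCG00000002886 differed between high and low BT by -4.59 on the log2 scale in the test of the difference itself.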

How the results depend on the processing

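The number of genes called between the tissues stayed within 1.5 times of 14373 under all alternatives, between 11970 (of 12698 tested, if each library of either tissue had to hold 10 counts) and 17562 (of 21738, with no minimum), and the number beyond 2-fold between 8631 and 12950. Without the block for the pig, that is, with the paired design ignored, 14391 genes were called, 10406 of them beyond 2-fold. The 1 gene called for merit depended on the setting. There were 0 calls without scaling, with the unusual testis library kept, with testis batch as a further term and without pigs 7131 and 1137, and 41 without the pig block, ENSSSCG00000002886 not among them. In limma with voom the 1 call was another gene, ENSSSCG00000028901 (adjusted p = 0.0280). Apart from merit, the block changed no call of the 148 named genes followed below except that of SCARB1, at 0.35 without it (edgeR adjusted p = 0.0184). Of the liver-restricted genes, 5 of 29 had no count in any testis.

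For 148 genes named by symbol, 1617 values were compared under the alternatives. Of these, 1570 kept direction and call, 28 changed sign, 14 gained a call and 5 lost it. ACTA2, TAGLN and DES, named above, were not among the 148, and they also changed direction without scaling. Of the 148, 9 changed sign without scaling: PEX19 to 0.30, TPMT to 0.030, CYB5A to 0.53, HMGCS1 to 0.96, FDFT1 to 1.03, GATA4 to 0.56, ADAM28 to 0.22, TOP2B to 0.71 and MAP2K2 to 0.53. With RLE factors HMGCS1 was 0.047 and FDFT1 0.11, and in DESeq2 they were 0.047 and 0.11. SCARB1 and CNN1 were called higher in testis at 0.32 and 0.51 with RLE factors and at 0.32 and 0.55 in DESeq2. CNN1 was also called with no minimum count (0.43) and in pigs of testis batch 1 (0.78). With the unusual testis library kept, PROX1 was -0.0008, SCARB1 -0.26, STARD10 -0.13, CYB5R3 -0.017, CYP26B1 -0.20, CYP27B1 -0.29 and CYP39A1 -0.32. In limma with voom CYP26B1 was -0.073 and CYP27B1 -0.044. In pigs of testis batch 2 CYP27B1 was -0.040 and CYP39A1 -0.0078, which was -0.031 with at least 10 counts and -0.062 without the block. HMGCS1 was 0.10 in pigs of testis batch 2, and FDFT1 was 0.027 with no minimum count. The cause was not tested beyond the construction of each setting. Genes at or near 0 in 1 tissue have fold changes limited by depth.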
